A study of Mus musculus with 18 samples.

Results

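The hippocampus of young adult mice heterozygous for Chd2 (HET) was compared with the hippocampus of wild-type mice (WT). The members were the 6 hippocampus libraries among the 18 libraries of the series, 3 HET and 3 WT, and every gene expressed in them. Both groups were C57BL/6 animals at postnatal day 45, and the labels give the HET group only as Chd2 het. The sources used here do not give the kind of mutation, the sex of the animals, how many animals went into a library or the time of day of dissection. The other 12 libraries came from the cortex and the medial ganglionic eminence (MGE, the ventral forebrain region where most cortical and hippocampal interneurons are born) at the embryonic stage E13.5, with 3 HET and 3 WT libraries each. RNA was extracted from dissected tissue and poly(A)-selected before sequencing, so each library mixes all cell types of the dissected piece. The labels do not say that the replicates are separate animals, and p-values measure the spread between these samples only.

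CHD2 is an ATP-dependent remodeller that moves or rebuilds nucleosomes, works along transcribed genes and promotes the deposition of the histone variant H3.3. Loss of one copy causes a childhood epileptic encephalopathy in humans. The hippocampus holds the granule cells of the dentate gyrus and the pyramidal cells of the CA1, CA2 and CA3 fields, together with interneurons, glia and blood vessels, and it is needed for forming lasting memories of events and places.

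The 3 HET libraries held 29326670, 29610646 and 30102723 counts, and the 3 WT libraries held 30457049, 32470909 and 33838812 counts. Levels are given as CPM, counts scaled to the size of the library with TMM factors, in the order of replicates 1, 2 and 3. Camk2a, the kinase of mature excitatory neurons, stood at 5872, 5074 and 5614 CPM in HET and 5434, 6179 and 6095 CPM in WT. Prox1, the transcription factor that marks dentate granule cells, stood at 79.4, 67.9 and 72.2 CPM in HET and 71.9, 91.3 and 107 CPM in WT, so both markers of the tissue were present in all 6 libraries. Xist, which is made by female cells, stood at 500 to 644 CPM, and Y-linked counts were 0 to 3 per library. All 6 libraries thus had a female pattern of expression. Libraries differed in how counts followed base composition. Across 14554 genes with a known transcript, the log2 fold change of HET over WT went with GC content at a Spearman rho of -0.22 and with transcript length at -0.20, as a description across genes of the same 6 libraries. The deviation of single libraries from the mean of all 6 went with GC content at rho of 0.09, -0.34 and -0.08 in HET and 0.22, 0.20 and -0.05 in WT.

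Chd2 itself (chromosome 7, 73426638 to 73541830, minus strand, mm10) was measured first because it checks the labels. It stood at 61.7, 63.8 and 62.7 CPM in HET and 70.8, 67.3 and 74.1 CPM in WT. The groups did not overlap, with HET lower throughout. The difference of the means was -11.2%, or -0.17 on the log2 scale (SE 0.06), with an unadjusted p of 0.0120 and an adjusted p of 0.191 by edgeR's quasi-likelihood test with Benjamini-Hochberg adjustment. Chd2 was therefore lower in every HET library without passing the threshold over all genes. Its value does not show how much of the message comes from the mutated copy, since the kind of mutation is not given. None of the 10 genes of the CHD family passed the threshold by edgeR or DESeq2. An unadjusted p under 0.05 was found for 1 of them, Chd2, against 15.6% of all genes. Chd1, the closest relative of Chd2, stood at 29.9, 30.5 and 31.3 CPM in HET and 26.1, 28.2 and 29.1 CPM in WT, which was 0.14 higher on the log2 scale (SE 0.07, adjusted p = 0.389 by edgeR).

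Of 15283 genes tested, 164 passed an adjusted p of 0.05 (1.07%), 40 of them higher in HET (0.262%) and 124 lower (0.811%). The lower genes included 10 of 25 endothelial genes, 2 of 17 core circadian clock genes, 4 of 14 clock output genes and 5 of 33 genes of protein folding in the endoplasmic reticulum. The higher genes included the clock gene Arntl, the glial gene Fabp7 and the potassium channel gene Kcna4. The median log2 fold change over all tested genes was 0.00, with 7848 genes above and 7435 below zero. In all 164 called genes the HET and WT libraries did not overlap, while 3167 of all tested genes (20.7%) had groups that did not overlap. Separate groups in a called gene are therefore no further evidence for it. At an unadjusted p under 0.05 there were 2378 genes (15.6%), the share against which unadjusted counts of the gene lists are to be read. DESeq2 called 435 of 19177 genes, and its counts in the gene lists are to be read against that share. The test used these 6 libraries alone. Counts of calls depended on single libraries. Without HET 3 the test called 23 genes, without WT 2 it called 37, and without WT 1 it called 292. Without HET 2 the count was 153, of which 71 were higher and 82 lower. Called genes were unevenly spread over GC content, with 43 lower and 3 higher genes in the quintile of genes richest in GC and 4 lower and 10 higher genes in the poorest quintile. With GC content corrected in each library, 167 genes were called, 51 higher and 116 lower, of which 136 were among the 164. What part GC content had in single genes was not tested.

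**Figure D1:**
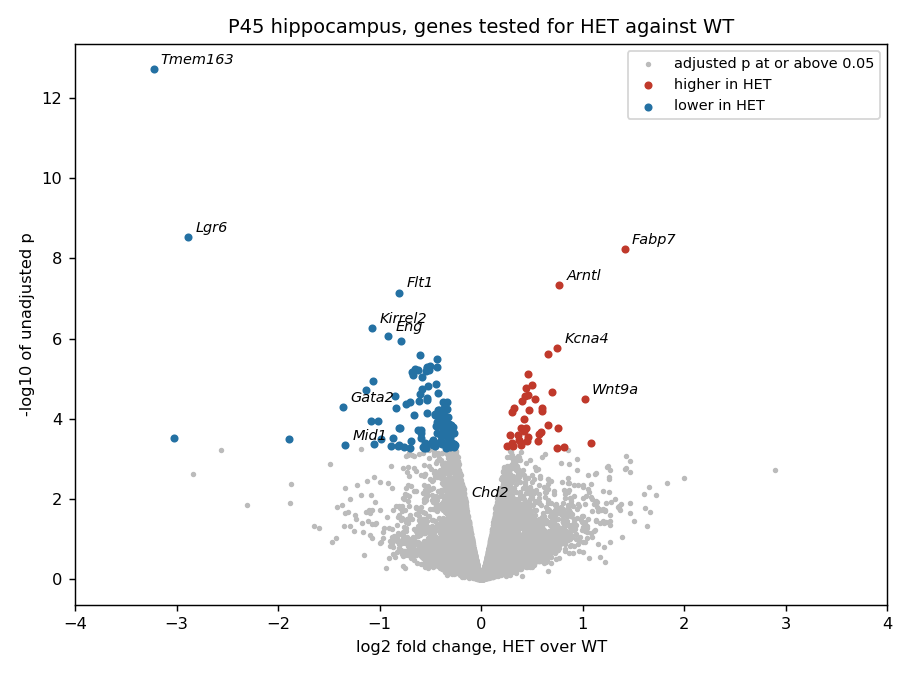
Log2 fold change of HET over WT (x axis) against -log10 of the unadjusted p from edgeR's quasi-likelihood test (y axis) for the 15283 genes tested in hippocampus, with the 40 higher genes in red, the 124 lower genes in blue and all others in grey. Tmem163 and Lgr6 stand far to the left, Fabp7 far to the right, and Chd2 lies among the grey genes.

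Tmem163, which encodes a zinc transporter of synaptic vesicles and endosomes (chromosome 1, 127486546 to 127679548), had the lowest p of all genes. It stood at 12.8, 10.6 and 11.1 CPM in HET and 99.1, 119.8 and 104 CPM in WT. Every HET library was far below every WT library, and the spread within each group was small beside the gap. The HET level was changed by -89.3% (log2 fold change -3.23, SE 0.09, adjusted p = 2.97e-09 by edgeR). Lgr6, a receptor for R-spondins that strengthens Wnt signalling (chromosome 1, 134983301 to 135105276), stood at 1.859, 1.503 and 1.718 CPM in HET and 10.1, 11.7 and 15.8 CPM in WT. It was changed by -86.5% in HET (log2 fold change -2.89, SE 0.19, adjusted p = 2.26e-05 by edgeR). Both genes lie on chromosome 1, where 17 of 894 tested genes were called (1.90%), and 9 of 1162 were called on chromosome 7 (0.775%), which carries Chd2. The calls of Tmem163 and Lgr6 held without any one of the 6 libraries.

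The 7 lower genes described next were mostly expressed at low levels, with Mid1 the highest of the 7 at up to 28.9 CPM in WT. Other lower genes with large changes are described with the vessel, clock and heat shock genes. Gata2, a transcription factor of blood, endothelial and midbrain cells, stood at 1.446, 1.503 and 1.553 CPM in HET and 3.66, 4.82 and 3.10 CPM in WT (log2 fold change -1.36, SE 0.22). Mid1, a ubiquitin ligase on microtubules whose gene crosses the edge of the pseudoautosomal region in laboratory mice, stood at 8.30, 8.50 and 14.4 CPM in HET and 28.9, 22.9 and 27.1 CPM in WT (-1.34, SE 0.22). HET 3 was the highest of the HET libraries for Mid1 and still lay below all WT libraries. Etnppl, an astrocyte enzyme that breaks down phosphoethanolamine, stood at 5.44, 3.82 and 3.44 CPM in HET and 8.51, 9.52 and 9.89 CPM in WT (-1.14, SE 0.17). Kirrel2, an adhesion molecule of the immunoglobulin family, stood at 5.54, 6.05 and 5.35 CPM in HET and 11.8, 11.8 and 12.1 CPM in WT (-1.07, SE 0.11). Mc4r, the melanocortin receptor known for its control of feeding, stood at 4.44, 3.66 and 4.10 CPM in HET and 7.19, 9.05 and 9.35 CPM in WT (-1.07, SE 0.15). For each of these 5 genes the 3 HET libraries lay below the 3 WT libraries, which the rule that chose them required. Prr5, a subunit of mTOR complex 2, was at -0.85 (SE 0.13), and Gpr4, a proton-sensing receptor of endothelium, at -0.98 (SE 0.20). The adjusted p of these 7 genes by edgeR lay between 0.00139 for Kirrel2 and 0.0476 for Mid1. Gpr4 was called in none of the fits that left out 1 library and Mid1 in 1 of 6, whereas Kirrel2 was called in all 6.

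**Figure D2:**
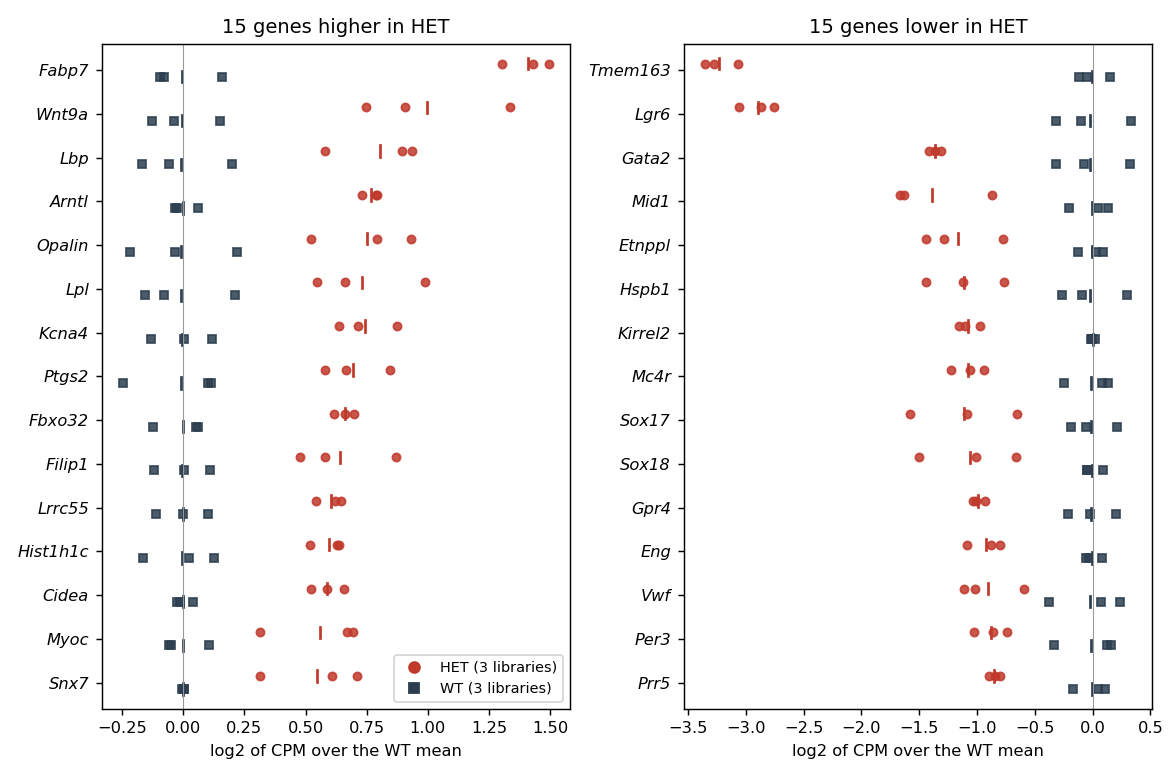
Levels of the 15 higher genes (left) and 15 lower genes (right) with the largest log2 fold change among called genes, as log2 of CPM over the mean of the 3 WT libraries, with red circles for the 3 HET libraries, dark squares for the 3 WT libraries and short bars for the mean of the log2 values. The groups do not overlap for any of the 30 genes, since the rule that chose them required it, and Tmem163 and Lgr6 lie farthest below WT.

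On the higher side, Fabp7, a fatty-acid-binding protein of radial glia and astrocytes (chromosome 10, 57784881 to 57788450), led the list. It stood at 23.7, 25.9 and 27.1 CPM in HET and 10.7, 9.02 and 9.12 CPM in WT. The lowest HET library was above the highest WT library by more than the WT level itself. The log2 fold change was 1.42 (SE 0.10, adjusted p = 2.98e-05 by edgeR). Wnt9a, a secreted Wnt ligand, stood at 9.95, 14.9 and 11.1 CPM in HET and 5.77, 6.57 and 5.42 CPM in WT (log2 fold change 1.02, SE 0.16, adjusted p = 0.0123). Lbp, which binds bacterial lipopolysaccharide, stood at 5.99, 4.67 and 5.81 CPM in HET and 3.60, 2.79 and 3.01 CPM in WT (0.81, SE 0.17, adjusted p = 0.0491). Lpl, the enzyme that releases fatty acids from lipoproteins, stood at 57.7, 53.4 and 72.4 CPM in HET and 42.3, 34.5 and 32.7 CPM in WT (0.75, SE 0.13, adjusted p = 0.0491). For these 3 genes the groups were separate, which the rule that chose them required. HET 2 was the highest HET library for Wnt9a and the lowest for Lbp and Lpl. With a library left out, Wnt9a was called in 5 of 6 fits, and Lbp and Lpl in 2 of 6 each.

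The remaining higher genes were of varied kinds. Kcna4, a subunit of fast-inactivating potassium channels, stood at 36.2, 42.7 and 38.3 CPM in HET and 21.3, 23.4 and 25.3 CPM in WT (log2 fold change 0.75, SE 0.09, adjusted p = 0.00297 by edgeR). Ptgs2, the inducible cyclooxygenase made by active excitatory neurons, stood at 41.8, 36.8 and 34.7 CPM in HET and 19.6, 25.0 and 25.2 CPM in WT (0.70, SE 0.10, adjusted p = 0.0102). Fbxo32, a ubiquitin ligase subunit best known from muscle wasting, stood at 27.8, 26.3 and 27.1 CPM in HET and 15.7, 17.8 and 17.9 CPM in WT (0.66, SE 0.08, adjusted p = 0.0035). Each of the 3 was separate between groups, which the rule that chose them required, and was called with any one library left out. Lrrc55, an auxiliary subunit of BK potassium channels, was at 0.60 (SE 0.10), Filip1, an actin-linked regulator of spines and migration, at 0.65 (SE 0.12), and the linker histone gene Hist1h1c at 0.60 (SE 0.10). Cidea, a lipid droplet protein (0.59, SE 0.11), Myoc, a secreted protein of eye and glia (0.57, SE 0.11), and Snx7, a sorting nexin (0.56, SE 0.11), completed the 15 together with Arntl and Opalin, described with the clock and glial genes. The adjusted p of these last 6 lay between 0.0161 and 0.0426 by edgeR, and with a library left out Cidea was called in 1 of 6 fits, Myoc and Snx7 in 2 each, and Lrrc55, Filip1 and Hist1h1c in 4 each.

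Endothelial genes had the most calls of the 48 gene lists examined. Of 25 endothelial genes tested, 10 were lower in HET and none higher, against 0.811% and 0.262% of all genes, and 21 of 25 had a fold change below zero. Over all genes 48.6% lay below zero. The median log2 fold change of the list was -0.41, against 0.00 over all genes. Flt1, a receptor for vascular endothelial growth factor, stood at 21.5, 20.4 and 19.4 CPM in HET and 35.5, 36.2 and 35.9 CPM in WT. Both groups were tight and far apart, and HET differed from WT by -0.81 on the log2 scale (SE 0.07, adjusted p = 2.19e-04 by edgeR). Eng, a co-receptor for TGF-beta family ligands on endothelium, stood at 9.43, 11.5 and 10.9 CPM in HET and 19.7, 19.3 and 21.2 CPM in WT (-0.91, SE 0.10, adjusted p = 0.00188). Mfsd2a, which carries the omega-3 fatty acid DHA across the blood-brain barrier, stood at 17.9, 14.7 and 15.9 CPM in HET and 28.3, 29.2 and 26.2 CPM in WT (-0.79, SE 0.09, adjusted p = 0.00223). Slc7a5, the barrier transporter for large neutral amino acids, stood at 45.1, 45.5 and 43.4 CPM in HET and 70.2, 63.4 and 60.1 CPM in WT (-0.53, SE 0.07, adjusted p = 0.00482). In all 4 genes the lowest WT library lay above the highest HET library, and every called gene was separate between groups.

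The endothelial transcription factors Sox17 and Sox18 were also lower in HET. Sox17 is a called member of the endothelial list, whereas Sox18 is not in the list and was named for its large change. Sox17 stood at 2.79, 3.76 and 1.98 CPM in HET and 5.71, 6.86 and 5.21 CPM in WT (log2 fold change -1.06, SE 0.22, adjusted p = 0.0461 by edgeR). Sox18 stood at 5.68, 4.48 and 3.17 CPM in HET and 9.57, 8.70 and 8.70 CPM in WT (-1.02, SE 0.18, adjusted p = 0.0245). Vwf, the clotting factor that endothelium stores, stood at 8.26, 6.14 and 5.75 CPM in HET and 14.7, 13.1 and 9.59 CPM in WT (-0.89, SE 0.18, adjusted p = 0.048). Slc2a1, the glucose transporter of the blood-brain barrier and of astrocytes, and also a gene of human epileptic encephalopathy, stood at 79.1, 59.5 and 68.2 CPM in HET and 90.2, 110.3 and 104 CPM in WT (-0.56, SE 0.10, adjusted p = 0.0456). The other called members of the list were Ly6c1 (-0.59), the drug efflux pump Abcb1a (-0.53) and the junction protein Esam (-0.54), named here after their values were seen. Other endothelial genes did not pass. Cldn5, the main claudin of brain endothelium, was at -0.41 (adjusted p = 0.0932) and Pecam1 at -0.35 (adjusted p = 0.188), while Egfl7 stood at -0.02, Ly6a at -0.03 and Emcn at 0.03, values also picked after they were seen.

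Pericytes and smooth muscle cells of the vessel wall had 1 called gene of 14, lower in HET, against 0.811% of all genes. It was Cspg4, which encodes the proteoglycan NG2 and also marks oligodendrocyte precursors. Cspg4 stood at 26.2, 22.1 and 23.2 CPM in HET and 37.2, 36.4 and 33.7 CPM in WT (log2 fold change -0.59, SE 0.08, adjusted p = 0.00573 by edgeR). The pericyte list had a median of -0.24, with 12 of 14 genes below zero, against 48.6% of all genes. Cspg4 was also the 1 called gene of 14 oligodendrocyte precursor genes, a list with a median of -0.06. To which of these cells the call belongs was not tested. The summed level of the endothelial list was 812, 802 and 769.6 CPM in HET and 969, 942 and 905 CPM in WT, and that of the pericyte list 169, 184 and 176 CPM in HET and 218, 205 and 200.3 CPM in WT. Nid1, a protein of the basement membrane, stood at 6.23, 5.78 and 6.05 CPM in HET and 12.7, 10.6 and 9.09 CPM in WT (-0.84, SE 0.14, adjusted p = 0.0161). In bulk tissue, fewer cells of a type and less RNA per cell cannot be told apart. The endothelial count of 10 was 3 without HET 3 and 4 without WT 2, and 8 to 9 without any other single library. With GC content corrected it was 8. Sox17, Vwf and Slc2a1 were each called in 2 of the 6 fits with a library left out and Sox18 in 3.

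**Figure D3:**
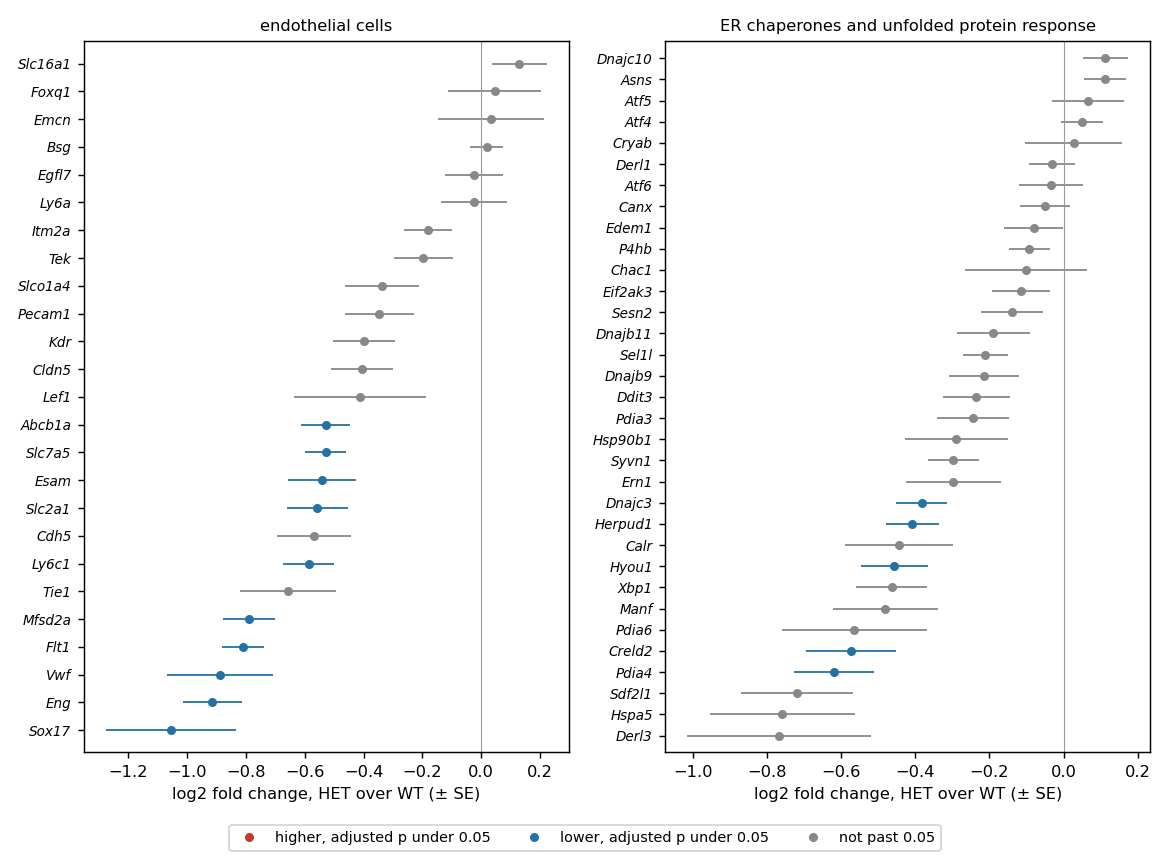
Log2 fold change of HET over WT with its SE (x axis) for each tested gene of the endothelial list (left) and of the endoplasmic reticulum list (right), with genes of adjusted p under 0.05 in blue where lower. The 10 blue endothelial genes lie between -0.53 and -1.06 and the 5 blue endoplasmic reticulum genes between -0.38 and -0.62, and no gene in either panel was called higher.

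The circadian clock is a feedback loop in which BMAL1 (the product of Arntl) and CLOCK switch on Per and Cry genes through E-boxes, and PER and CRY proteins switch the pair off again. A second loop of ROR activators and REV-ERB repressors (Nr1d1, Nr1d2) acts on Arntl, and D-box proteins such as DBP and TEF carry the rhythm to other genes. Promoter stretches of 5 of the 7 called clock genes are shown, those with a motif of the loop in their window. The windows of Tsc22d3 held none of the motifs searched, and Bhlhe40 is not shown. They come from RefSeq windows of GRCm38.p6, the assembly also called mm10, that cover the bases just before and after each annotated start. Capitals mark the motif, and each sequence is read on the strand of its gene.
Per3, D-boxes, chr4:151044796-151044890, minus strand: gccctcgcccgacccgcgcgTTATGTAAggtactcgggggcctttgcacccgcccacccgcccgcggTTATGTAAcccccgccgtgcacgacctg
Ciart, E-boxes, chr3:95882247-95882364, minus strand: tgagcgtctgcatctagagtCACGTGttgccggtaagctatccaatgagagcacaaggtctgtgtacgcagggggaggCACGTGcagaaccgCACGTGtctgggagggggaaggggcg
Tef, E-box, first start, chr15:81802526-81802571, plus strand: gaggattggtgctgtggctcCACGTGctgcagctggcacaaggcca
Tef, E-box, second start, chr15:81811256-81811301, plus strand: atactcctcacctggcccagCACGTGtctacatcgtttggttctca
Bhlhe41, E-box, chr6:145865548-145865593, minus strand: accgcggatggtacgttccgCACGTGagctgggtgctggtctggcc
Arntl, ROR element after the start, chr7:113207531-113207557, plus strand: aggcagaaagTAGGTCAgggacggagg

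The E-box searched was CACGTG, which stood in 7.15% of all 32851 promoter windows. The D-box TTATGTAA stood in 0.938% of windows, its variant TTACGTAA in 0.119%, the ROR element TAGGTCA in 2.61% and its variant TGGGTCA in 3.98%, each counted on both strands. An E-box was found in 3 of 13 core clock genes and 5 of 11 output genes that had a window, and in 8.09% of all 27025 genes with one. These matches describe the letters in the window, and no match says only that the letters are not there.

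Among 17 core clock genes tested, 1 rose and 2 fell in HET, and among 14 output genes 4 fell and none rose, against 0.262% higher and 0.811% lower over all genes. Arntl stood at 45.4, 43.6 and 45.5 CPM in HET and 25.7, 27.4 and 25.8 CPM in WT. Its 2 groups were tight and far apart, and differed by 0.77 on the log2 scale (SE 0.06, adjusted p = 1.77e-04 by edgeR). Per3, a period gene, stood at 55.4, 50.8 and 45.5 CPM in HET and 73.36, 100.6 and 103.3 CPM in WT (-0.87, SE 0.14, adjusted p = 0.0393). Ciart, a repressor of the BMAL1 and CLOCK pair, stood at 5.094, 6.862 and 7.202 CPM in HET and 10.3, 10.4 and 12.7 CPM in WT (-0.80, SE 0.15, adjusted p = 0.0293). WT 1 was the lowest WT library for Per3 and for Ciart. Their HET and WT libraries did not overlap, and with a library left out Ciart was called in 2 of 6 fits and Per3 in 1.

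Further period and cryptochrome genes were lower in every HET library without passing the threshold. Per2 stood at 45.8, 35.6 and 37.8 CPM in HET and 59.9, 94.7 and 93.3 CPM in WT (log2 fold change -1.06, SE 0.21, adjusted p = 0.104 by edgeR). Per1 stood at 81.5, 82.7 and 99.0 CPM in HET and 103, 135 and 121 CPM in WT (-0.45, adjusted p = 0.0944). Cry1 stood at 13.3, 13.4 and 10.1 CPM in HET and 14.4, 17.8 and 20.8 CPM in WT (-0.53, adjusted p = 0.134). WT 1 was again the lowest WT library for these 3 genes. Nr1d2 (REV-ERB beta) was at -0.44 (adjusted p = 0.167), Rorb at 0.21 and Rora at 0.11, all 3 with groups that did not overlap. Nr1d1 (REV-ERB alpha) stood at 199, 186 and 212 CPM in HET and 209.7, 213 and 193 CPM in WT, and its groups overlapped. Clock stood at 85.9, 94.2 and 87.0 CPM in HET and 82.2, 90.8 and 92.0 CPM in WT, also overlapping (0.01, SE 0.06). Npas2, the stand-in for CLOCK in forebrain, Cry2 (-0.06), Csnk1d (-0.09) and Csnk1e (-0.05) overlapped between the groups too, with Npas2 at 0.09. In all, 6 core clock genes had HET wholly below WT and 3 wholly above, against 10.9% and 9.83% of all genes.

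The output genes had a median of -0.35 on the log2 scale, against -0.06 for the core genes and 0.00 over all genes. Tef, a D-box activator, stood at 349, 345 and 333 CPM in HET and 441, 461 and 485 CPM in WT (log2 fold change -0.43, SE 0.06, adjusted p = 0.00482 by edgeR). Tsc22d3, a glucocorticoid-induced regulator also called GILZ, stood at 42.75, 45.23 and 50.05 CPM in HET and 64.3, 68.2 and 65.3 CPM in WT (-0.52, SE 0.07, adjusted p = 0.00482). Bhlhe40, a repressor that binds E-boxes, stood at 73.5, 85.3 and 71.4 CPM in HET and 104, 116 and 111 CPM in WT (-0.52, SE 0.08, adjusted p = 0.00809). Its paralog Bhlhe41 stood at 38.3, 41.5 and 34.8 CPM in HET and 50.8, 62.1 and 60.8 CPM in WT (-0.60, SE 0.09, adjusted p = 0.0106). In each of these 4 genes the HET libraries lay wholly below the WT libraries.

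Dbp, a D-box activator with a wide daily swing in many tissues, stood at 28.4, 43.2 and 40.1 CPM in HET and 57.5, 79.1 and 75.0 CPM in WT (log2 fold change -0.92, SE 0.20, adjusted p = 0.122 by edgeR). Hlf, its relative, stood at 69.4, 90.7 and 64.3 CPM in HET and 113, 117 and 115 CPM in WT (-0.62, SE 0.12, adjusted p = 0.0591). Both had HET wholly below WT, as did Tspan4 (-0.43), Wee1 (-0.27) and Ccrn4l (-0.17). Nfil3, the repressor that opposes DBP at D-boxes, went the other way, at 14.0, 12.4 and 15.5 CPM in HET and 11.41, 10.02 and 11.95 CPM in WT (0.33, SE 0.11, adjusted p = 0.195). Usp2 (0.17), Coq10b (-0.15), Sgk1 (0.11) and Timeless (-0.16) overlapped between groups. Of the 14 output genes, 9 had HET wholly below WT and 1 wholly above, against 10.9% and 9.83% of all genes. The summed level of the output list was 865, 914 and 886 CPM in HET and 1084, 1176 and 1203 CPM in WT. The count of called core genes was 6 without WT 1, 2 without HET 2 and 1 without any other library, and that of output genes was 1 without HET 3, 2 without WT 2 and 4 or 5 otherwise. The time of day of dissection is not given, so a difference of genotype and a difference of sampling time between the groups cannot be told apart.

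**Figure D4:**
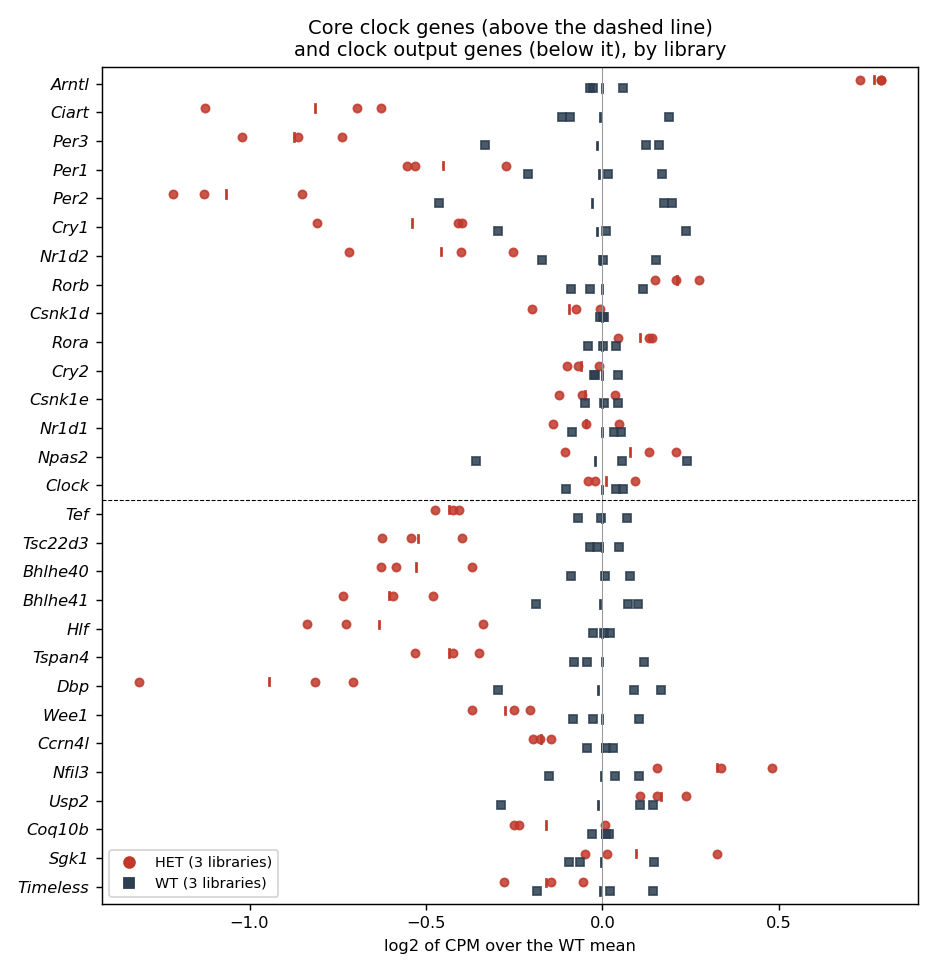
Levels of 15 of the 17 core clock genes (above the dashed line) and the 14 clock output genes (below it) as log2 of CPM over the mean of the 3 WT libraries, with red circles for HET libraries, dark squares for WT libraries and short bars for means of the log2 values. Arntl stands alone on the right at about 0.77, while Per2, Per3, Ciart, Dbp and the called output genes lie to the left and Clock, Nr1d1 and Npas2 have mixed circles and squares.

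Protein folding in the endoplasmic reticulum (ER) is guarded by the unfolded protein response. Unfolded proteins in the ER activate the sensors IRE1, PERK and ATF6, whose targets include chaperones and the machinery that removes faulty proteins. ATF6 and XBP1 act through ER stress elements, and promoter stretches of the 3 called genes that hold one are shown for that reason, with the element in capitals, from the same RefSeq windows.
Dnajc3, ER stress element, chr14:118937807-118937865, plus strand: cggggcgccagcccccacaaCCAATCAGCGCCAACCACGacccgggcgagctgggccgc
Creld2, ER stress element on the other strand, chr15:88819500-88819558, plus strand: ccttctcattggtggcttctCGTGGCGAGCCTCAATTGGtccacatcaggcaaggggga
Herpud1, ER stress element II, chr8:94386357-94386407, plus strand: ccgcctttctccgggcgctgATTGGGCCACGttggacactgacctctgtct

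The ER stress element searched was CCAAT and CCACG with 9 bases between them, found in 0.119% of all windows and in 9 of the 28 listed genes with a window, 2 of them among the 4 called genes with a window. The second form, ATTGG and CCACG with 1 base between them, was found in 0.0365% of windows and in 2 of the 28 genes. Both strands were searched, and a match describes the letters only.

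Of 33 genes of the ER list tested, 5 were lower in HET and none higher, and 28 of 33 had a fold change below zero, with a median of -0.23. Over all genes 0.811% were called lower, 0.262% higher, and 48.6% lay below zero. Herpud1, a membrane protein of ER-associated degradation, stood at 38.4, 41.1 and 39.3 CPM in HET and 52.3, 48.5 and 57.0 CPM in WT (log2 fold change -0.41, SE 0.07, adjusted p = 0.0214 by edgeR). Dnajc3, a co-chaperone that inhibits eIF2 alpha kinases, stood at 59.9, 56.3 and 53.3 CPM in HET and 68.0, 74.3 and 78.7 CPM in WT (-0.38, SE 0.07, adjusted p = 0.0245). Pdia4, a disulfide isomerase, stood at 41.2, 34.5 and 32.8 CPM in HET and 51.6, 50.9 and 64.3 CPM in WT (-0.62, SE 0.11, adjusted p = 0.0317). In these 3 genes every HET library was below every WT library. Hyou1, a large ER chaperone, stood at 126, 107 and 98.8 CPM in HET and 144, 143 and 168 CPM in WT (-0.46, SE 0.09, adjusted p = 0.0479). Creld2, a small secreted chaperone, stood at 17.21, 13.01 and 13.54 CPM in HET and 20.8, 19.5 and 24.8 CPM in WT (-0.57, SE 0.12, adjusted p = 0.0491). Within HET the first library was the highest for 4 of the 5 genes, and within WT the third was the highest for all 5.

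The main chaperone Hspa5, also called BiP, was picked after its values were seen. It stood at 233, 205 and 149.7 CPM in HET and 302, 300.2 and 393 CPM in WT (log2 fold change -0.76, SE 0.20, adjusted p = 0.177 by edgeR). Its groups did not overlap, but its spread within groups was wide. Xbp1, the transcription factor of the IRE1 arm, was at -0.46 (SE 0.10, adjusted p = 0.055), also with separate groups. Genes of the PERK arm had no call, with Atf4 at 89.6, 96.2 and 94.5 CPM in HET and 93.4, 90.4 and 87.3 CPM in WT (0.05, SE 0.06), Ddit3 at -0.23 (SE 0.09, adjusted p = 0.242) and Asns at 0.11 (SE 0.06), 3 genes also picked after their values were seen. The count of 5 was 0 without HET 3, 1 without WT 2 or WT 3, 2 without HET 2, 6 without WT 1 and 7 without HET 1, and it was 3 with GC content corrected. It was also 0 in 1 fit of all 18 libraries and 1 with Y-linked expression as a covariate, while DESeq2 called 10. Over all genes DESeq2 called 435 of 19177.

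Chaperones of the cytosol had 1 call. Of 32 heat shock genes tested, 1 was lower and none higher, against 0.811% and 0.262% of all genes, with a median of -0.08. The called gene was Hspb1, a small heat shock protein that binds unfolding proteins, at 5.266, 4.117 and 3.304 CPM in HET and 8.44, 7.45 and 11.0 CPM in WT (log2 fold change -1.09, SE 0.19, adjusted p = 0.0245 by edgeR). It was called in 3 of the 6 fits with a library left out. The glucocorticoid list, which shares Tsc22d3 and Per1 with the clock lists, had 1 called gene of 26, Tsc22d3, against 1.07% of all genes. In that list 13 of 26 genes had an unadjusted p under 0.05, against 15.6% of all genes. The count of 1 was 5 with DESeq2, 5 without WT 1 and 3 without HET 1. Over all genes DESeq2 called 435 of 19177.

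Genes of the hippocampal fields had few calls, and their medians lay below zero for CA1, above zero for CA2 and CA3 and near zero for the dentate gyrus; differences between the fields were not tested. Of 12 CA1 genes tested, 2 were lower and none higher, with a median of -0.26, against 0.811% lower and 0.262% higher over all genes. Fibcd1, a receptor for acetylated sugars that marks CA1, stood at 206, 181 and 184 CPM in HET and 252, 299.5 and 282 CPM in WT (log2 fold change -0.55, SE 0.07, adjusted p = 0.00482 by edgeR). Mpped1, a phosphoesterase, stood at 174, 197 and 164 CPM in HET and 221, 255 and 224 CPM in WT (-0.39, SE 0.08, adjusted p = 0.0461). Both had separate groups, and with a library left out Fibcd1 was called in 5 of 6 fits and Mpped1 in 2. Wfs1, a classical marker of CA1 picked for that role, stood at 343, 269.8 and 316 CPM in HET and 174, 454 and 456 CPM in WT, with WT 1 below all HET libraries (-0.22, SE 0.43). Nov, another CA1 gene picked after its values were seen, was as uneven, at 31.8, 85.3 and 36.4 CPM in HET and 125, 73.4 and 49.9 CPM in WT.

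Of 16 genes of CA2 and CA3, none passed the threshold by edgeR and DESeq2 called 1. An unadjusted p under 0.05 was found for 4 of them, against 15.6% of all genes. The median was 0.23, and 14 of the 16 lay above zero, against 51.4% of all genes. Cpne4, a calcium-binding copine, stood at 157, 127 and 167 CPM in HET and 120.0, 110.5 and 120.3 CPM in WT (log2 fold change 0.36, SE 0.09, adjusted p = 0.0853 by edgeR). Chgb, a granin of dense-core vesicles, stood at 1001, 783 and 941 CPM in HET and 766, 724 and 794 CPM in WT (0.26, SE 0.08, adjusted p = 0.167). HET 2 was the lowest HET library for both, and for Chgb it lay within the WT range. Without HET 2 the median of the list was 0.37 and 6 of its genes were called. The list shares Iyd with the CA1 list. Of 15 dentate genes 1 was higher, C1ql2, a secreted organiser of mossy fibre synapses, at 136, 159.6 and 134 CPM in HET and 104, 98.7 and 115 CPM in WT (0.44, SE 0.08, adjusted p = 0.0293). Over all genes 0.262% were called higher. The dentate list had a median of -0.03, with 7 genes above and 8 below zero. By edgeR no gene was called among 9 mossy cell genes, 15 genes of excitatory neurons in general, 35 interneuron genes or 23 genes of adult neurogenesis. In these lists 0, 2, 5 and 4 genes had an unadjusted p under 0.05, against 15.6% of all genes. DESeq2 called 1 gene of excitatory neurons. The count of 2 in CA1 was 5 without WT 1, 0 without HET 3 and 1 without HET 1, WT 2 or WT 3, and C1ql2 was not called without HET 3 or WT 2. The dentate count of 1 was 0 with GC content corrected, with or without length. It was also 0 with a replicate block, with a Y-linked covariate and in 1 fit of all 18 libraries. With DESeq2 and limma-voom it was 1. The summed CA1 level was 1195, 1215 and 1190.2 CPM in HET and 1206, 1602 and 1503 CPM in WT, so WT 1 lay with the HET libraries. How far the position of the dissection along the hippocampus moved these lists was not tested.

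**Figure D5:**
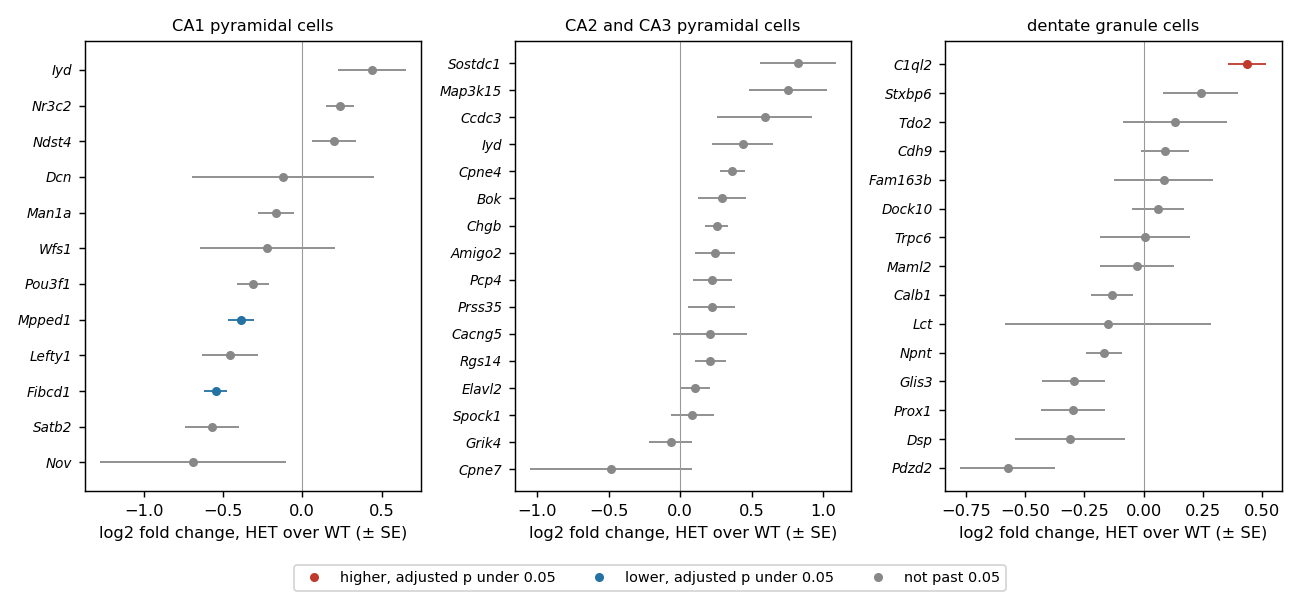
Log2 fold change of HET over WT with its SE (x axis) for genes of CA1 pyramidal cells (left), CA2 and CA3 pyramidal cells (middle) and dentate granule cells (right), with called genes in colour and the others in grey. The CA1 genes lie mostly left of zero, with Fibcd1 and Mpped1 called lower, 14 of 16 CA2 and CA3 genes lie right of zero with none called, and C1ql2 is the 1 called dentate gene.

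Glial lists held 4 called genes among oligodendrocytes and astrocytes. Of 30 oligodendrocyte and myelin genes, 2 were higher and none lower, and 28 of 30 were above zero with a median of 0.26. Over all genes 0.262% were called higher, 0.811% lower, and 51.4% lay above zero. Opalin, a membrane glycoprotein of myelin, stood at 42.2, 35.0 and 46.5 CPM in HET and 23.82, 28.37 and 20.97 CPM in WT (log2 fold change 0.76, SE 0.13, adjusted p = 0.0293 by edgeR). Gpr37, a receptor that holds back oligodendrocyte maturation, stood at 133, 107 and 121 CPM in HET and 91.1, 93.7 and 83.8 CPM in WT (0.43, SE 0.08, adjusted p = 0.0224). HET 2 was the lowest HET library for both, and with a library left out Opalin was called in 3 of 6 fits and Gpr37 in 2. The summed oligodendrocyte level was 13273, 8967 and 11906 CPM in HET and 9974, 10553 and 8316 CPM in WT. Without HET 2 the median was 0.39 with 6 genes called, and without HET 1 it was 0.13 with none called by edgeR. The count was also 0 without HET 3, and 1 without WT 1, WT 2 or WT 3.

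Of 30 astrocyte genes, Fabp7 rose and Fgfr3 fell, against 0.262% higher and 0.811% lower over all genes. The list median was -0.01. The count of 2 was 4 without HET 1, 5 without WT 1 and 5 with DESeq2, which called 435 of 19177 over all genes. An unadjusted p under 0.05 was found for 10 of the 30, against 15.6% of all genes. Fgfr3, a growth factor receptor of astrocytes, stood at 107, 110.0 and 105 CPM in HET and 144, 151 and 142 CPM in WT, 2 tight groups apart (log2 fold change -0.44, SE 0.05, adjusted p = 0.00403 by edgeR). Aqp4, the water channel of astrocyte endfeet on vessels and picked for that place, stood at 159, 167 and 169 CPM in HET and 121, 140.1 and 142 CPM in WT (0.30, SE 0.07, adjusted p = 0.0616). No microglial gene of 30 was called by edgeR or DESeq2, and 3 had an unadjusted p under 0.05. Csf1r, the growth factor receptor of microglia, stood at 115, 107 and 108 CPM in HET and 116, 124 and 124 CPM in WT (-0.14, SE 0.06, adjusted p = 0.25).

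Genes switched on by neuronal activity had 1 higher and 1 lower gene among 49, against 0.262% and 0.811% of all genes. Ptgs2 was the higher one. Fosb, a partner of JUN in AP-1, was the lower one at 9.33, 8.20 and 9.94 CPM in HET and 13.2, 16.9 and 15.9 CPM in WT (log2 fold change -0.74, SE 0.12, adjusted p = 0.0141 by edgeR). The classical members Fos, Arc, Npas4 and Egr1, picked for their use as activity markers, overlapped between groups. Fos stood at 20.1, 24.1 and 27.7 CPM in HET and 15.5, 28.0 and 22.4 CPM in WT, and Arc at 304, 332 and 464 CPM in HET and 261, 495 and 388 CPM in WT. WT 1 was the lowest library for both. The list median was -0.11, with 32 genes below zero, and the count of 2 was 8 without WT 1 and 1 without HET 3 or WT 2. DESeq2 called 10 genes of this list and 435 of 19177 over all genes. Of all genes 48.6% lay below zero.

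The lists of ion channels and of GABA and glutamate receptors had 3 called genes, all higher in HET. The share of all genes called higher was 0.262%. Of 32 potassium channel genes 2 were higher, Kcna4 and Kcnv1, a silent subunit that modifies other channels. Kcnv1 stood at 47.36, 53.43 and 50.05 CPM in HET and 41.1, 36.1 and 37.9 CPM in WT (log2 fold change 0.39, SE 0.07, adjusted p = 0.0293 by edgeR). Grm3, a presynaptic and glial glutamate receptor, was the called gene of 7 metabotropic receptors, at 42.7, 46.2 and 39.6 CPM in HET and 33.4, 34.9 and 29.8 CPM in WT (0.39, SE 0.08, adjusted p = 0.0476). The groups were separate for both genes, and with a library left out Kcnv1 was called in 2 of 6 fits and Grm3 in 1. All 7 NMDA receptor genes lay below zero, at a median of -0.16, and none was called by edgeR or DESeq2, with 2 at an unadjusted p under 0.05. Grin2b stood at 128, 110.0 and 128 CPM in HET and 141, 152 and 125 CPM in WT (-0.19, SE 0.08, adjusted p = 0.281). By edgeR no gene was called among 18 GABA receptor, 21 AMPA and kainate receptor, 12 sodium channel, 15 calcium channel, 23 HCN and other excitability channel, 28 postsynaptic scaffold and 43 transmitter release genes. At an unadjusted p under 0.05 these lists held 2, 4, 0, 5, 5, 9 and 4 genes, against 15.6% of all genes, and DESeq2 called 1, 0, 0, 2, 1, 3 and 0.

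Among 35 genes of memory and CREB signalling, Hdac4, a histone deacetylase that shuttles between nucleus and cytoplasm, was the called one. It stood at 29.1, 26.2 and 26.7 CPM in HET and 40.6, 36.4 and 34.2 CPM in WT, wholly apart (log2 fold change -0.44, SE 0.08, adjusted p = 0.0275 by edgeR). Among 40 genes of human epileptic encephalopathy, Slc2a1 was the called one. Of 32 splicing regulators, 2 rose and 1 fell. Over all genes 1.07% were called, 0.262% higher and 0.811% lower, the shares to set beside these lists. Srsf5, a serine-rich splicing factor, stood at 226, 228 and 220.5 CPM in HET and 178, 184 and 194 CPM in WT (0.28, SE 0.06, adjusted p = 0.0357). Cirbp, an RNA-binding protein induced by cold, stood at 42.2, 50.4 and 55.0 CPM in HET and 37.0, 36.1 and 34.1 CPM in WT (0.46, SE 0.09, adjusted p = 0.0375). Srrm4, the activator of neuronal microexons, stood at 40.8, 38.3 and 38.1 CPM in HET and 52.7, 47.9 and 48.1 CPM in WT (-0.34, SE 0.07, adjusted p = 0.0338). The other cold-induced gene, Rbm3, did not split by group, at 34.4, 64.1 and 62.7 CPM in HET and 49.2, 47.9 and 46.9 CPM in WT. The splicing count of 3 was 0 without HET 2, HET 3 or WT 2 and 1 without WT 3, Slc2a1 was not called without HET 2, HET 3, WT 2 or WT 3, and Hdac4 was not called without HET 2, HET 3 or WT 2. Neither edgeR nor DESeq2 called a gene among 15 genes of histone H3.3 and its chaperones, 34 of BAF and Polycomb complexes or 12 of DNA methylation, where 3, 8 and 1 had an unadjusted p under 0.05, against 15.6% of all genes. Of 20 interferon and inflammation genes both called 0, and 1 had an unadjusted p under 0.05.

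Ribosomal and respiratory genes had no calls and lay mostly above zero. Of 74 cytosolic ribosomal protein genes, 70 were above zero (median 0.10 on the log2 scale). Of 73 genes of oxidative phosphorylation, 70 were above zero with a median of 0.07, against 51.4% of all genes above zero. HET lay wholly above WT for 35 ribosomal and 21 respiratory genes, against 9.83% of all genes. It lay wholly below for 2 and 0, against 10.9%. Neither edgeR nor DESeq2 called a gene of these lists. At an unadjusted p under 0.05 there were 18 ribosomal and 8 respiratory genes, against 15.6% of all genes. Rps15a stood at 121, 119 and 115 CPM in HET and 105, 105 and 108 CPM in WT (0.16, SE 0.05, adjusted p = 0.172 by edgeR), and Ndufb4 at 51.8, 54.4 and 55.1 CPM in HET and 48.7, 43.9 and 47.9 CPM in WT (0.20, SE 0.06, adjusted p = 0.167). The groups were separate for both. The median of all genes in the quintile poorest in GC was 0.06, and what part GC content had in these lists was not tested.

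Summed markers of the choroid plexus and of ependymal cells, which border the hippocampus, were highest in HET 1 and HET 3. The summed choroid plexus list stood at 343, 252 and 310.4 CPM in HET and 243, 255 and 233 CPM in WT, of which Enpp2, also an oligodendrocyte gene, made up 244, 171 and 217 CPM in HET and 158, 164 and 149 CPM in WT. Its defining gene Ttr stood at 13.53, 3.954 and 11.69 CPM in HET and 4.35, 5.85 and 4.59 CPM in WT, so HET 1 and HET 3 lay above all WT libraries and HET 2 below them. Of 15 choroid plexus and 12 ependymal genes edgeR called none, with medians of 0.43 and 0.70, while 8 and 6 had an unadjusted p under 0.05, against 15.6% of all genes, and DESeq2 called 1 and 2. Without HET 2 the count was 3 in each list. The summed ependymal list stood at 94.9, 64.0 and 103 CPM in HET and 77.4, 80.0 and 66.3 CPM in WT. Mean summed levels were 787 CPM in HET and 849 CPM in WT for neocortex and subiculum, 621 CPM in HET and 664 CPM in WT for striatum, 693 CPM in HET and 609 CPM in WT for meninges, and 531 CPM in HET and 508 CPM in WT for thalamus and habenula. By library the meningeal sum was 619, 849 and 611 CPM in HET and 693, 552 and 583 CPM in WT. HET 2 alone lay above all WT libraries. By edgeR no gene was called among 24 meningeal genes, 18 of thalamus and habenula, 18 of neocortex and subiculum, 14 of striatum or 3 testable genes of red blood cells, where 3, 0, 4, 1 and 0 had an unadjusted p under 0.05 and DESeq2 called 1, 0, 1, 0 and 0. The part of bordering tissue in the glial and vessel results was not tested.

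The genotype effect in hippocampus was then compared with that in the embryonic tissues by interaction contrasts in 1 fit of all 18 libraries. Against cortex 2 of 16125 genes differed (0.0124%), and against MGE 1 gene (0.0062%). Tmem163 differed from both. Its group mean on the 18-library scale was 11.98 CPM in HET and 112 CPM in WT hippocampus, 7.97 CPM in HET and 7.54 CPM in WT cortex, and 1.72 CPM in HET and 1.54 CPM in WT MGE. The HET hippocampus was thus nearer to the embryonic cortex of either genotype than to the WT hippocampus. It lay above the cortex, and these levels were not tested against each other. The difference of the log2 fold changes was -3.32 against cortex (adjusted p = 9.9e-05 by edgeR) and -3.36 against MGE (adjusted p = 4.96e-04), and it was called in all 16 alternatives for each contrast. Lpl differed against cortex, by 1.27 (adjusted p = 0.0176), with 63.7 CPM in HET and 38.0 CPM in WT hippocampus and 23.1 CPM in HET and 33.5 CPM in WT cortex. Lpl was called in 10 of 16 alternatives, its adjusted p ranging from 7.63e-04 to 0.117. It was not called without hippocampus HET 3, WT 2 or WT 3 or without cortex HET 1 or HET 2.

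The other genes with the lowest p in these contrasts did not pass. Fabp7 had 26.67 CPM in HET and 10.03 CPM in WT hippocampus, 419 CPM in HET and 532 CPM in WT cortex, and 212 CPM in HET and 279.5 CPM in WT MGE, where radial glia express it strongly. Its adjusted p for the difference was 0.103 against cortex and 0.0982 against MGE by edgeR. Arntl had an adjusted p of 0.106 against MGE, Eng and Nid1 of 0.0938 each against cortex, and Eomes and Slitrk2 of 0.0728 each against MGE. These counts rest on how far the embryonic libraries of a group differ among themselves. Cortex HET 3 stood apart from the other 2 cortex HET libraries, with a squared difference per degree of freedom of 106 and 99.1 times counting noise, against 15.3 between those 2, and 5.99 to 19.8 between hippocampus libraries of a group. On the same measure MGE HET 2 lay at 60.3 from MGE HET 1 and 46.5 from MGE HET 3, against 13.6 between HET 1 and HET 3. MGE WT libraries lay at 19.3 to 29.4 from each other. Without cortex HET 3, 2791 genes differed between hippocampus and cortex. Without cortex WT 1 the count was 10, without cortex WT 2 it was 9, without hippocampus HET 2 it was 4, and it was 1 without cortex HET 1, cortex HET 2, hippocampus HET 3, WT 2 or WT 3. Against MGE the count was 12 without MGE HET 2, 7 without MGE WT 1 and 2 without hippocampus WT 3. Age and tissue differ together between these groups, so their parts in a difference cannot be told apart.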

How the data were processed

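The authors deposited raw counts per gene symbol for 18 libraries, of which the 6 from P45 hippocampus form the comparison. Tools listed in the submitters' processing notes are TopHat2 2.1.1, DESeq2, SAMtools, Trimmomatic and FastQC, with mm10 as the build. The sources used here give no counting program, gene annotation or strand setting, so overlapping and antisense genes cannot be told apart. The table held 24062 lines, of which 4885 had no count in the 6 libraries and 27 were symbols turned into dates, which stayed in the totals and are not named. Some other genes that were tested are not reported here.

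Counts were tested with edgeR 4.0.16 in R 4.3.3 (filterByExpr, minimum count 10, minimum total 15, TMM scaling, robust quasi-likelihood test, no covariate) with Benjamini-Hochberg adjustment over all genes and a threshold of 0.05. The SE of a log2 fold change is its size divided by the square root of F. The members and gene lists were chosen with earlier results of these data known. Named genes are Chd2, the 15 higher and 15 lower called genes with the largest change (groups separate, mean log2 CPM of at least 1, no predicted, date or sex-linked names), up to 4 called members of each list or 2 with the lowest p, and up to 5 genes per interaction. Coordinates come from GENCODE M21 and promoters from RefSeq. The procedure was tested on simulated data. Alternatives were upper-quartile or RLE scaling, all genes unfiltered, DESeq2 1.42.0, limma-voom 3.58.1, 1 fit of all 18 libraries, a replicate block, a Y-linked covariate, and each library left out. GC and length corrections were added after seeing the data. The labels do not say that equal replicate numbers of HET and WT are pairs, and the main test used no pairing.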

Additional observations from a re-analysis of the deposited data

Results flagged for a closer look

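The genotype effect on Tmem163 differed between tissues by a test of the difference itself. The log2 fold change in hippocampus minus that in cortex was -3.32 (adjusted p = 9.9e-05 by edgeR), and minus that in MGE -3.36 (adjusted p = 4.96e-04), with all 3 hippocampus HET libraries below all 3 WT libraries. The genotype effect on Lpl in hippocampus minus that in cortex was 1.27 on the log2 scale (adjusted p = 0.0176 by edgeR), with all 3 hippocampus HET libraries above all 3 WT libraries. Tmem163 and Lpl were called in hippocampus, and every gene called there was separate between groups.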

How the results depend on the processing

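The 164 calls (40 higher, 124 lower) became 435 (110 higher, 325 lower) with DESeq2, 291 (75 higher, 216 lower) without a filter, 124 (48 higher, 76 lower) with upper-quartile scaling and 11 (4 higher, 7 lower) in 1 fit of all 18 libraries. With Y-linked expression as covariate they were 90 (21 higher, 69 lower). Y-linked counts were 0 to 3 per library, so this covariate carried no difference of sex and its result says nothing about sex. The share of higher genes among the calls was 38.7% under upper-quartile scaling, against 24.4%. RLE scaling gave 165 calls and limma-voom 115. Endothelial calls were 6 with upper-quartile scaling and 1 in the fit of all 18 libraries, against 10. Leaving out 1 library gave 23 to 292 calls, 7 to 77 higher and 16 to 215 lower. Corrections for GC content and length together gave 116 calls, 79 of them lower. Except where a fit with fewer samples or more genes shows it, the cause was not tested.

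The numbers of HET and WT libraries are shared in the labels. Same-numbered deviations from the group means correlated at -0.083, -0.095 and 0.080. With 3 libraries per group these values can neither show nor exclude a pairing. With the replicate block 80 genes were called (19 higher, 61 lower), with the block and GC correction 71 (17 higher, 54 lower), the ER list had 0 calls in place of 5, and the contrast with cortex called 1 gene.

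The log2 fold change of Chd2 stayed below zero and past no threshold in every alternative run, at -0.21 to -0.14 with 1 library left out and at -0.11 (adjusted p = 0.459) with GC content and length corrected. Of 58 called genes that are named, 13 were called with each of the 6 libraries left out in turn, and Arntl, Fabp7, Lgr6, Mfsd2a and Tmem163 were called under every alternative listed above other than the GC corrections. Among named genes, the sign changed for Eomes alone, an uncalled gene at 0.07, which ranged from -0.069 to 0.316 with 1 library left out, below zero without WT 1 or WT 2. The contrast with MGE called 3 genes with limma-voom. Left-out libraries gave 1 to 2791 genes in the contrast with cortex and 1 to 12 in that with MGE. Genes of low level, such as Gata2 with 1.446 to 4.82 CPM, rest on fewer counts. What part depth had in their calls was not tested.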
